A study of Mus musculus with 18 samples.

Results

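Matrix glycoproteins and proteoglycans are the non-collagen proteins of the extracellular matrix, and 47 of their genes were followed here in mouse liver. The genes were picked by symbol from a list of named matrix genes, and all 47 were found among the 54752 genes of the deposited count table, each once and each as a protein-coding gene. The list was chosen with earlier results of these data known, so the shares of members called below only describe this list. Of the 47, 46 had enough counts to be tested. Mfap5, a microfibril protein, did not, with 3 counts summed over the 6 control libraries, 7 over the CCl4 libraries and 58 over the CCl4_PTH libraries.

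RNA of liver was sequenced from 18 male C57BL/6 mice in 3 groups of 6, taken in week 22 of an experiment that 45 mice had entered at 6 weeks of age, 15 in each group. Control mice received intraperitoneal olive oil 2 times per week and a daily gavage of water. Mice of the CCl4 group received, on the same schedule and with the same water gavage, carbon tetrachloride (CCl4), a solvent that hepatocytes turn into a reactive radical and that scars the liver on repeated dosing. The CCl4_PTH group had the same injections and a daily gavage of PTH, also written PZH in the labels and taken as one preparation, Pien Tze Huang, a traditional Chinese medicine. Intraperitoneal injections and a daily gavage were thus common to all 3 groups. The labels call the CCl4 mice a liver cancer model, but the tumour content of the tissue and the interval since the last dose are not stated in them. Libraries carry the animal numbers of their labels.

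These proteins organise the matrix around collagen. Fibrillins, fibulins and emilins build the microfibrils on which elastin is laid down, laminins, nidogens and perlecan form the basement membrane under epithelium and around vessels, small leucine-rich proteoglycans such as decorin and lumican bind collagen fibrils and set their spacing, and matricellular proteins such as thrombospondins, tenascin C and periostin signal to cells more than they bear load. A healthy liver has little of most of them outside portal tracts and vessel walls, while hepatocytes secrete fibronectin and vitronectin into plasma. In liver fibrosis, stellate cells and portal fibroblasts that have turned into myofibroblasts are the main known source of scar matrix.

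Promoters of 5 members on which the comparisons turn are printed 5′ to 3′ on the strand of the gene. Of these, 4 belong to members called lower in the CCl4_PTH group than in the CCl4 group. The calls came from the fit of all libraries for Nid1 and Tgfbi, and from the fit without CCl4_PTH 1 for Vcan and Tnc. The fifth, Tnxb, passed the test in no comparison. The printed stretches are bases before the start of a RefSeq transcript in build GRCm38.p6, up to 250 and without any base that an exon of GENCODE M21 covers. The stretch of Nid1 lies at chr13:13437352-13437550 on the plus strand, that of Tgfbi at chr13:56609336-56609522 on the plus strand, that of Vcan at chr13:89742513-89742762 on the minus strand, that of Tnc at chr4:64047016-64047265 on the minus strand and that of Tnxb at chr17:34670285-34670534 on the plus strand. Capitals mark matches to 4 motifs searched on both strands. The GC box is GGGCGG. Matches to it stand in Nid1, Tgfbi, Tnc and, on both strands, Vcan. The TATA box is TATAAA and is matched in Tnc. The TEAD site is GGAATG and is matched in Nid1. The AP-1 site is TGANTCA and is matched in Tnxb, which has no GC box match. No match overlaps another in these stretches.
Nid1: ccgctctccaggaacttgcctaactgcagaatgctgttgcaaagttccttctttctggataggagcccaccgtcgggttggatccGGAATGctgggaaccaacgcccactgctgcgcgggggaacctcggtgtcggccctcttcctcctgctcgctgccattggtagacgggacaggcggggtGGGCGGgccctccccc
Tgfbi: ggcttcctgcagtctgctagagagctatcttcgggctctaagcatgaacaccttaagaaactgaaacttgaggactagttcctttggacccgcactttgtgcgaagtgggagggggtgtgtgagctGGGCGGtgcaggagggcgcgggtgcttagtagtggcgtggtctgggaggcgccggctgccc
Vcan: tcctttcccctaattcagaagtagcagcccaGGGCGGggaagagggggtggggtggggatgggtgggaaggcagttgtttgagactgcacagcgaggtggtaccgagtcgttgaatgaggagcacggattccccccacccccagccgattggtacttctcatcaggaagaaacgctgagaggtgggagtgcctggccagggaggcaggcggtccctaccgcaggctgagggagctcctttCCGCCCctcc
Tnc: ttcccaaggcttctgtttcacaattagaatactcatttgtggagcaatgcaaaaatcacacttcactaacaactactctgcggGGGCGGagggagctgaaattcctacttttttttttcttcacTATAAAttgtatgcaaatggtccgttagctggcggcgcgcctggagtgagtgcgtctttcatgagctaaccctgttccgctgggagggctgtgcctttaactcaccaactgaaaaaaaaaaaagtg
Tnxb: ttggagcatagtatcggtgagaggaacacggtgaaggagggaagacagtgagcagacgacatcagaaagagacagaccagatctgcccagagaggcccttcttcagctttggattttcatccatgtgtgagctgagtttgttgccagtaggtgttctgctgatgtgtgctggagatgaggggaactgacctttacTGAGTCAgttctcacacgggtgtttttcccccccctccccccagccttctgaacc

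RefSeq promoter entries matched 32 of the 47 members. In the 250 bases upstream, a GC box match stood in 19 of these 32 (59.4%), beside 35.4% of all 27025 genes with an entry and 45.8% of the protein-coding ones. The TATA box was matched in 18.8% of the members and 14.3% of all genes, the AP-1 site in 9.38% and 7.82%, the TEAD site in 15.6% and 14.4%, and CCAAT in 28.1% and 37.5%. None of the 32 held the SMAD palindrome GTCTAGAC, which 0.2% of all genes held. A match is a description of the letters and shows no bound factor.

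Libraries held 67229863 to 118877267 counts, of which 30.6% to 55.8% fell on ribosomal RNA loci. Levels are given as CPM, counts divided by the TMM-scaled library total and multiplied by 1000000, on which 1 count was worth 0.00670 to 0.0195 CPM. Hepatocyte markers summed to 36405 to 52220.0 CPM in control, so the libraries held the liver RNA their labels name. Libraries stood apart from their groups on the second principal component. CCl4_PTH 1 lay at -43.4, with the other 5 CCl4_PTH libraries at 32.3 to 55.1 and the CCl4 libraries at -38.8 to 3.36, and control 1 and control 8 lay at 26.4 and 14.3, with the other 4 control libraries at -32.3 to -23.4. CCl4_PTH 1 was the highest of its group for 20 of the 46 tested members and the lowest for 11. Other libraries had counts of this size: CCl4 4 was highest for 21, control 8 for 20 and CCl4_PTH 8 for 17, and CCl4 5 was lowest for 22 and CCl4_PTH 7 for 19. Member changes that involve CCl4_PTH are given without CCl4_PTH 1 where a call changes, and for some other members. Where only the value with all libraries is given, its size may depend on CCl4_PTH 1. Changes of markers and of other genes of the pathway are not given without that library. Nor are ratios of members in CCl4_PTH against control, so whether these depend on it is not shown. Without control 1 and control 8, 38 members rose in CCl4 against control and 37 in CCl4_PTH against control, beside 41 and 39 with all libraries. Neutrophil markers summed to 129 CPM in CCl4_PTH 1, beside 10.6 to 16.9 in the other 5, and cholangiocyte markers to 253 CPM, beside 58.3 to 106; their part in the member values was not tested.

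Per kilobase of exon, the 47 members spanned a wide range of RNA levels. Vitronectin (Vtn) and fibronectin (Fn1) were first and second, at 385 and 151 CPM per kilobase over all 18 libraries, and decorin (Dcn) followed at 22.3; these 3 kept their places in each group. The order below them differed by group. In control it was Tgfbi at 8.78, biglycan (Bgn) at 8.39, Prelp at 6.94 and Sparc at 6.39 CPM per kilobase. In CCl4 Sparc was at 22.5, Bgn at 21.9 and Ccdc80 and Tgfbi nearly level at 17.97 and 17.95. Mfap5 was last in every group, at 0.0103 over all libraries, with Fbn2 (0.00264) and versican (Vcan, 0.00873) next in control and asporin (Aspn) next in CCl4 (0.0671) and CCl4_PTH (0.0621). The order of decorin and biglycan depended on the length used: with the longest transcript in place of all exons, biglycan was at 36.2 and decorin at 27.7 CPM per kilobase. Fn1 and Vtn together held 87.5 ± 1.21% (mean ± SD, n = 6) of the length-scaled member RNA in control, 64.3 ± 9.61% in CCl4 and 75.5 ± 5.90% in CCl4_PTH. The other 45 members thus held a larger share after CCl4, in sums that were not tested.

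CCl4 was first compared with control. Of the 46 tested members, 41 rose in CCl4 against control and none fell. The median member was 1.63 higher on the log2 scale, beside 0.05 for all 21840 genes tested. For comparison, 26.3% of all genes tested rose and 21.2% fell by the same call, an adjusted p under 0.05 in the edgeR quasi-likelihood test with Benjamini-Hochberg adjustment. All 6 CCl4 libraries lay above all 6 control libraries for 33 of the 46 members, and 14.8% of all genes tested were separated in this way. These counts include Fbn2, Vcan, Mfap2 and Srpx, which had control libraries without a count. They passed the filter on low counts through the groups given CCl4, where they were high. Their rises and lack of overlap against control are therefore only descriptions. No member fell by DESeq2 either, and 1 member, Vtn, was lower at an unadjusted p under 0.05. Vtn was called lower when CCl4 1 (-0.56), CCl4 5 (-0.57) or CCl4_PTH 1 (-0.48 on the log2 scale) was left out. The members that did not pass were Aspn, Ogn, Tnxb, Fn1 and Vtn. The rise passed in all 26 alternatives tried for 38 of the 41 members, the other 3 being Agrn, Fmod and Srpx2. The heat map of member levels by library shows the rise across roles.

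**Figure D1:**
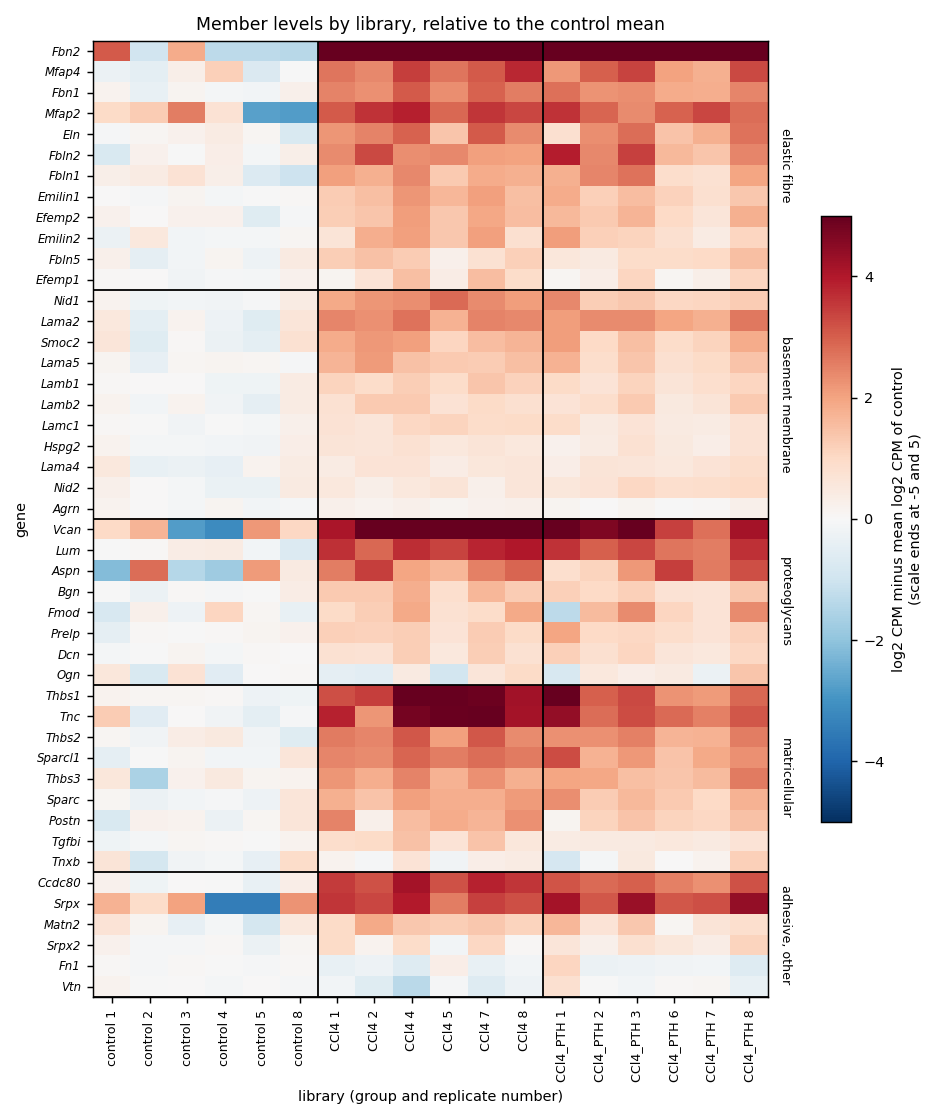
Heat map of the 46 tested members (rows, grouped by role and ordered by their change) in the 18 libraries (columns), as log2 CPM minus the mean log2 CPM of the 6 control libraries, with 0.5 count added and the colour scale ending at -5 and 5. Red is higher and blue lower than control: 41 members rose in CCl4, while Ogn, Tnxb, Fn1 and Vtn stayed pale, and CCl4_PTH 1 differs from its neighbours in several rows.

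Markers of cell types moved with this comparison, in which 26.3% of all genes tested rose and 21.2% fell. Of 6 hepatocyte markers, 4 fell and none rose, and their sum was 36405 to 52220.0 CPM in control and 14535 to 41607 in CCl4. Of 8 stellate cell and fibroblast markers 6 rose, with sums of 202 to 256 CPM in control and 378 to 665 in CCl4. All 5 tested portal fibroblast markers rose, with sums of 2.78 to 5.61 CPM in control and 16.0 to 32.4 in CCl4, as did 5 of 5 mesothelium markers (1.07 to 5.85 CPM in control and 7.31 to 16.7 in CCl4), 5 of 5 cholangiocyte markers (11.9 to 26.4 CPM in control and 90.8 to 173 in CCl4) and 5 of 5 vascular endothelium markers (61.1 to 75.5 CPM in control and 84.1 to 126 in CCl4). Macrophage markers rose in 5 of 6 cases, with sums of 44.8 to 72.6 CPM in control and 157 to 261 in CCl4. Of the sinusoidal endothelium markers 1 rose and 1 fell of 5, with 153 to 176 CPM in control and 145 to 183 in CCl4, and of 4 tested smooth muscle and myofibroblast markers 1 rose (4.79 to 9.59 CPM in control and 7.71 to 12.3 in CCl4). All 3 tested neutrophil markers rose (1.51 to 3.48 CPM in control and 9.70 to 73.3 in CCl4) and so did 5 of 5 lymphocyte markers (1.18 to 2.30 CPM in control and 2.78 to 23.5 in CCl4); Ly6g was at 0 in control. Of 4 adipocyte genes Cfd, a complement protease abundant in fat, was the 1 tested, at 0.336 to 7.83 CPM in control, 0 to 0.0369 in CCl4 and 0.0201 to 0.171 in CCl4_PTH. It fell without overlap in both comparisons with control, with fitted log2 changes of -8.67 in CCl4 (edgeR adjusted p = 6.02e-06), a size that rests on 4 counts in that group, and -5.43 in CCl4_PTH (edgeR adjusted p = 1.62e-04), while Adipoq and Lep were at 0 in control and CCl4. Cfd passed the filter on low counts through its control libraries, the group where it was high, so these falls are only descriptions. Of 4 pancreas genes Cela1 was the 1 tested, at 3.35 to 15.1 CPM in control and 0.949 to 3.81 in CCl4, with a log2 change of -1.54 (edgeR adjusted p = 0.00220). Prss2, Cpa1 and Pnlip were at 3.11, 5.31 and 7.21 CPM in control 1 and at 0 in the other 17 libraries. In bulk tissue, more cells of a type and more RNA per cell cannot be told apart, and the part of these markers in the member values was not tested.

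Elastic fibre and microfibril genes rose as a whole: 12 of 12 tested members were higher in CCl4 than in control, by a median of 2.12 on the log2 scale, and 10 of the 12 did not overlap control. Fbn2, a fibrillin best known from developing tissue, was nearly absent from control, with 16 counts in the group and 4 of 6 libraries at 0. In this and the following sentences the 3 values per group are the lowest, median and highest of 6 libraries. Levels of Fbn2 were 0, 0 and 0.151 CPM in control, 8.36, 9.94 and 21.4 CPM in CCl4 and 3.96, 8.93 and 10.9 CPM in CCl4_PTH. Every CCl4 and CCl4_PTH library lay far above every control library, and the fitted change in CCl4 against control was 8.26 ± 0.59 (edgeR adjusted p = 2.08e-08). With so few control counts the size of that change is uncertain, although its direction was the same in every library. Fbn2 passed the filter on low counts through the groups given CCl4, where it was high. Its change and lack of overlap against control are therefore only descriptions.

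Emilin1 (chr5:30913402-30921277), a glycoprotein found where elastin meets microfibrils, was at 2.55 CPM per kilobase in control, close to the 2.69 of Efemp1, and at 8.49 in CCl4, the highest of the role there. Its levels were 11.7, 12.5 and 13.7 CPM in control, 30.4, 37.7 and 58.4 CPM in CCl4 and 22.1, 30.4 and 45.2 CPM in CCl4_PTH. The CCl4 libraries were all above control, by 1.74 ± 0.16 (edgeR adjusted p = 2.39e-07). Mfap4, a microfibril-associated protein known as a marker of hepatic fibrosis, was at 0.229, 0.345 and 0.888 CPM in control, 2.06, 2.87 and 5.24 CPM in CCl4 and 1.31, 2.43 and 3.99 CPM in CCl4_PTH, with no overlap between CCl4 and control and a change of 2.96 ± 0.37 (edgeR adjusted p = 4.66e-06). Mapk7 lies antisense over exons of Mfap4, and without a stated strand setting reads of the 2 genes cannot be told apart. Efemp1, the fibulin of basement membranes and vessels, was at 4.90, 5.39 and 6.32 CPM in control, 6.05, 9.69 and 16.1 CPM in CCl4 and 5.78, 6.76 and 11.7 CPM in CCl4_PTH. It rose by 0.97 ± 0.24 (edgeR adjusted p = 0.00255), the smallest change of the role, and its CCl4 and control libraries overlapped.

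The other elastic fibre members rose by 1.05 to 2.63 on the log2 scale. Fibrillin 1 (Fbn1), the main fibrillin of adult tissue, rose by 2.63 ± 0.18 (edgeR adjusted p = 7.66e-09) and elastin itself (Eln) by 2.46 ± 0.33 (edgeR adjusted p = 1.06e-05). Fbln2 rose by 2.44 ± 0.39, Fbln1 by 1.80 ± 0.34, Efemp2, which is needed to crosslink elastin, by 1.61 ± 0.21, Emilin2 by 1.54 ± 0.28 and Fbln5, an elastin-binding fibulin, by 1.05 ± 0.21, with edgeR adjusted p-values of 7.61e-06 to 0.000453. Mfap2, the short microfibril glycoprotein, rose by 2.55 ± 0.60 (edgeR adjusted p = 0.00164) from a level at which 2 control libraries had no count. Genes on the other strand also overlap exons of Fbn2 (Gm26507), Fbn1 (Gm9913), Efemp2 (Mus81) and Eln (Gm30003), as of Lama2 (Gm48084), Nid2 (Rtraf), Thbs1 (Gm29233), Thbs3 (Mtx1), Tnc (8030451A03Rik), Aspn (Cenpp), Prelp (Gm15851), Matn2 (9430069I07Rik) and Fn1 (Apol7d) in the other roles. Summed over the role, levels were 32.8 to 38.4 CPM in control and 112 to 198 in CCl4.

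Basement membrane genes rose in every tested case, 11 of 11, but by less: the median was 0.97 on the log2 scale and 8 members did not overlap control. Nidogen 1 (Nid1, chr13:13437551-13512269), which links the laminin and collagen IV networks, and the laminin chain Lama2 changed most. Nid1 was at 14.4, 15.5 and 22.3 CPM in control, 61.2, 79.9 and 119.6 CPM in CCl4 and 34.4, 39.6 and 87.3 CPM in CCl4_PTH. All CCl4 libraries were above all control libraries, by 2.30 ± 0.22 (edgeR adjusted p = 2.99e-07). Gm48682 overlaps exons of Nid1 on the other strand.

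Lama2, the alpha chain of the laminin of muscle and mesenchyme, was at 2.08, 3.10 and 4.83 CPM in control, 10.4, 16.8 and 20.7 CPM in CCl4 and 10.8, 14.7 and 19.6 CPM in CCl4_PTH. Control and CCl4 did not overlap and the change was 2.30 ± 0.22 (edgeR adjusted p = 2.48e-07). Perlecan (Hspg2), a large heparan sulfate proteoglycan, was the first of this role per length in control (4.73 CPM per kilobase, Nid1 2.42) and second to Nid1 in CCl4 (7.21 and 11.9). It was at 60.2, 63.1 and 84.0 CPM in control, 96.9, 103 and 115 CPM in CCl4 and 78.6, 92.8 and 114 CPM in CCl4_PTH. Its change of 0.61 ± 0.11 (edgeR adjusted p = 1.45e-04) was among the smallest of the group, yet the 6 CCl4 libraries still stood above the 6 control libraries.

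The remaining basement membrane members rose by 0.21 to 1.67 on the log2 scale. Smoc2, a calcium-binding protein related to Sparc, rose by 1.67 ± 0.27, and the epithelial and vascular laminin chain Lama5 by 1.57 ± 0.17. The beta chains Lamb1 and Lamb2 rose by 1.12 ± 0.12 and 0.97 ± 0.17, and the common gamma chain Lamc1 by 0.90 ± 0.10. The endothelial laminin chain Lama4 rose by 0.50 ± 0.15 (edgeR adjusted p = 0.00937), nidogen 2 (Nid2) by 0.46 ± 0.13 (edgeR adjusted p = 0.00791) and agrin (Agrn), a heparan sulfate proteoglycan first known from the nerve-muscle junction, by 0.21 ± 0.07 (edgeR adjusted p = 0.0214). In these last 3 the CCl4 and control libraries overlapped. The Agrn call was lost when any of CCl4 1, 2, 7 and 8, CCl4_PTH 1, 2, 3 and 6 or control 2, 3, 5 and 8 was left out, with changes of 0.14 to 0.18 on the log2 scale and adjusted p-values of 0.0522 to 0.124, and with ribosomal RNA loci left out (0.17, adjusted p = 0.0535). It was also lost without control 1 and control 8 together (0.19, edgeR adjusted p = 0.05565).

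Among the small leucine-rich proteoglycans and versican, 6 of 8 members rose, by a median of 1.30 on the log2 scale over all 8, and 5 did not overlap control. Versican (Vcan, chr13:89655312-89742509), a large hyaluronan-binding proteoglycan, was at 0, 0.129 and 0.290 CPM in control, 1.14, 8.43 and 17.7 CPM in CCl4 and 0.441, 1.44 and 11.7 CPM in CCl4_PTH. Control libraries held 50 counts in all, 2 of them had none, and CCl4 was higher in every library, by 6.11 ± 1.0 (edgeR adjusted p = 9.24e-05). Vcan too passed the filter on low counts through the groups given CCl4, so this rise and lack of overlap are only descriptions. Lumican (Lum), a keratan sulfate proteoglycan of collagen fibrils, was at 2.0, 3.24 and 4.21 CPM in control, 23.2, 40.6 and 51.8 CPM in CCl4 and 18.8, 28.8 and 39.9 CPM in CCl4_PTH. Its CCl4 libraries lay far above control, by 3.57 ± 0.24 (edgeR adjusted p = 7.75e-09).

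Decorin, which caps collagen fibrils and binds TGF-beta, was already abundant in control. Its levels were 76.6, 83.2 and 91.4 CPM in control, 119, 142 and 194 CPM in CCl4 and 118, 158 and 187 CPM in CCl4_PTH. CCl4 exceeded control in every library, though by only 0.89 ± 0.14 (edgeR adjusted p = 3.21e-05). Dcn and Lum are neighbours on chromosome 10, 46984 bases apart, at chr10:97479609-97518143 and chr10:97565128-97572703. Biglycan, its closest relative, was at 40.9, 50.1 and 64.7 CPM in control, 91.6, 125 and 178 CPM in CCl4 and 82.2, 109 and 129.9 CPM in CCl4_PTH, and rose without overlap by 1.38 ± 0.16 (edgeR adjusted p = 1.41e-06).

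Prelp, which ties collagen to basement membranes, rose by 1.08 ± 0.18 (edgeR adjusted p = 6.57e-05), and fibromodulin (Fmod), a collagen-binding relative of lumican, by 1.23 ± 0.46 (edgeR adjusted p = 0.0342) with overlapping libraries. The Fmod call was lost when any of CCl4 2, 4 and 8 or control 1, 2, 3, 5 and 8 was left out, with changes of 1.05 to 1.22 on the log2 scale and adjusted p-values of 0.0529 to 0.0846, and with no filter (1.23, adjusted p = 0.0562). It was also lost without control 1 and control 8 together (0.93, edgeR adjusted p = 0.169). Asporin and osteoglycin (Ogn), which lie 40480 bases apart on chromosome 13, did not pass. Ogn was at 0.628, 1.10 and 1.76 CPM in control, 0.573, 1.12 and 2.11 CPM in CCl4 and 0.622, 1.43 and 2.82 CPM in CCl4_PTH, with the 3 groups covering much the same range and a change of 0.08 ± 0.38 (edgeR adjusted p = 0.877). Aspn was at 0, 0.0145 and 0.171 CPM in control, 0.0764, 0.148 and 0.285 CPM in CCl4 and 0.0426, 0.131 and 0.281 CPM in CCl4_PTH, too few counts to measure well, with 18 in the control group. Its fitted change was 1.65 ± 0.81 (edgeR adjusted p = 0.103), and it passed without control 2 (2.45 on the log2 scale, edgeR adjusted p = 0.0283) and with library sizes only (2.30, edgeR adjusted p = 0.0196).

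Matricellular genes held the widest changes after Fbn2 and Vcan: 8 of 9 rose, by a median of 1.96 on the log2 scale, and 7 did not overlap control. Thrombospondin 1 (Thbs1, chr2:118111876-118127133), which activates TGF-beta, was at 1.30, 1.62 and 1.71 CPM in control, 14.6, 37.1 and 70.5 CPM in CCl4 and 6.76, 11.8 and 85.8 CPM in CCl4_PTH. Control libraries were tightly grouped and CCl4 libraries spread widely above them, with a change of 4.67 ± 0.67 (edgeR adjusted p = 2.78e-05). Tenascin C (Tnc, chr4:63959785-64047015), a glycoprotein of wounds and tumour stroma, was at 0.647, 0.877 and 2.32 CPM in control, 4.42, 21.9 and 33.7 CPM in CCl4 and 5.53, 7.62 and 20.1 CPM in CCl4_PTH. All CCl4 libraries exceeded control, by 4.28 ± 0.49 (edgeR adjusted p = 2.85e-06), although control 1 stood above the other control libraries, at 2.32 CPM beside 0.647 to 0.957.

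Sparc, a collagen-binding glycoprotein that cells need to lay down fibrillar collagen, was at 19.2, 22.4 and 36.1 CPM in control, 64.0, 83.1 and 104 CPM in CCl4 and 47.5, 66.0 and 119 CPM in CCl4_PTH. The increase was 1.82 ± 0.20 (edgeR adjusted p = 1.21e-06) without overlap. Tgfbi (chr13:56609523-56639562), an adhesive protein induced by TGF-beta, was at 28.2, 33.6 and 37.6 CPM in control, 48.2, 62.2 and 91.1 CPM in CCl4 and 44.0, 45.4 and 53.2 CPM in CCl4_PTH, and it rose by 1.03 ± 0.14 (edgeR adjusted p = 7.11e-06) with every CCl4 library above control. Sparcl1 and Thbs2, relatives of Sparc and Thbs1, rose by 2.58 ± 0.26 and 2.62 ± 0.23, Thbs3 by 1.96 ± 0.30 and periostin (Postn), a fibroblast product, by 1.78 ± 0.31 (edgeR adjusted p = 1.20e-04).

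Tenascin X (Tnxb, chr17:34670535-34719815), the tenascin of loose connective tissue, was the matricellular member that did not pass. Its levels were 15.1, 25.3 and 51.8 CPM in control, 24.7, 32.9 and 44.0 CPM in CCl4 and 15.4, 29.5 and 63.5 CPM in CCl4_PTH. The groups lay on top of one another, with a change of 0.12 ± 0.31 (edgeR adjusted p = 0.777). The pseudogene Cyp21a2-ps overlaps its exons on the other strand, and reads of that locus may be included.

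Of the adhesive and other members, 4 of 6 rose, by a median of 0.92 on the log2 scale over all 6. Ccdc80 (chr16:45093402-45128077), a secreted matrix protein of fibroblasts and adipocytes, was at 4.81, 6.29 and 7.96 CPM in control, 56.7, 73.1 and 112 CPM in CCl4 and 30.7, 47.5 and 57.1 CPM in CCl4_PTH. CCl4 libraries were all far above control, by 3.60 ± 0.20 (edgeR adjusted p = 7.55e-10). Srpx, a sushi-domain protein, was at 0, 0.215 and 0.391 CPM in control, 0.497, 0.875 and 1.33 CPM in CCl4 and 0.717, 1.15 and 1.79 CPM in CCl4_PTH, with 76 control counts in all and a change of 2.21 ± 0.60 (edgeR adjusted p = 0.00540). Rpgr overlaps exons of Srpx on the same strand, so part of its counts may belong to Rpgr. Matrilin 2 (Matn2) rose by 1.26 ± 0.28 (edgeR adjusted p = 0.00103) and Srpx2 by 0.57 ± 0.21 (edgeR adjusted p = 0.0352). The Srpx2 call was lost when any of CCl4 1, 4 and 7, CCl4_PTH 1, 3 and 6 or control 2, 3, 4, 5 and 8 was left out, with changes of 0.43 to 0.56 on the log2 scale and adjusted p-values of 0.0508 to 0.127, with no filter (0.57, adjusted p = 0.0546) and with only the 2 groups fitted (0.57, adjusted p = 0.0556). It was also lost without control 1 and control 8 together (0.61, edgeR adjusted p = 0.05885).

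The 2 plasma adhesive proteins did not pass. Fibronectin was at 1729.9, 1839.6 and 1903 CPM in control, 1180.4, 1468 and 2313 CPM in CCl4 and 1164, 1559.8 and 3822 CPM in CCl4_PTH. Of the CCl4 libraries 5 were below the control range, CCl4 5 was above it, and the change was -0.21 ± 0.24 (edgeR adjusted p = 0.493). Vitronectin was at 767, 829.9 and 941 CPM in control, 329.7, 623 and 789 CPM in CCl4 and 638, 839.8 and 1446 CPM in CCl4_PTH, with 5 CCl4 libraries below the control range, CCl4 5 inside it and a change of -0.45 ± 0.21 (edgeR adjusted p = 0.0779). With total counts in place of TMM scaling both changes became positive, at 0.33 for Fn1 and 0.07 for Vtn, while the all-gene median went from 0.05 to 0.63.

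**Figure D2:**
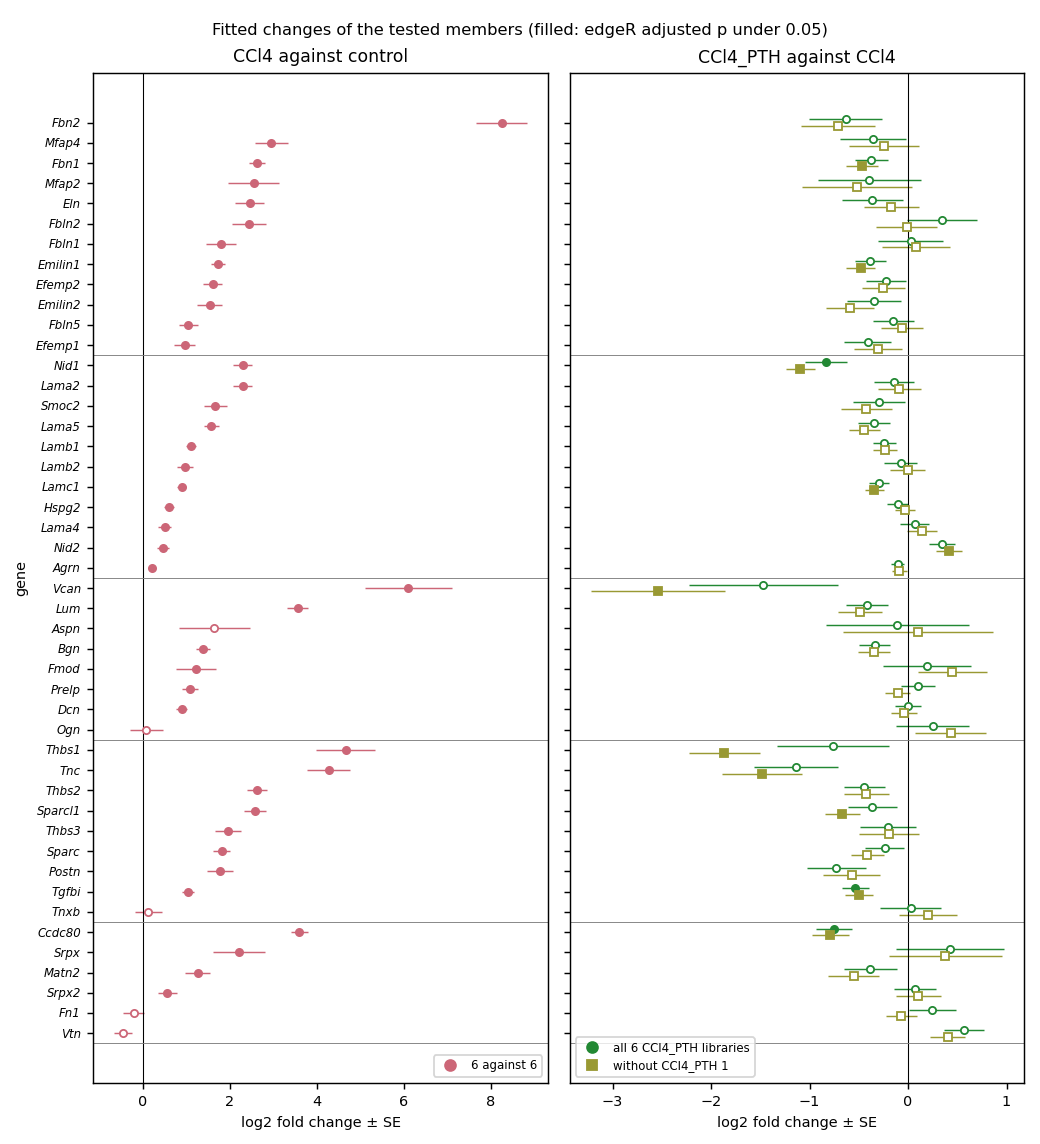
Fitted log2 fold changes with standard errors (x axes, different ranges) of the 46 tested members (y axis) in CCl4 against control (left) and in CCl4_PTH against CCl4 (right), there with all 6 CCl4_PTH libraries (circles) and without CCl4_PTH 1 (squares). Filled symbols passed an edgeR adjusted p of 0.05: 41 on the left, and on the right 3 with all libraries and 11 without CCl4_PTH 1.

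PTH was then compared with water gavage among mice given CCl4. Ccdc80, Nid1 and Tgfbi fell and no member rose, so that 3 of 46 members were lower where 4.95% of all genes tested were lower and 7.1% higher. The share of members called is close to that background. The median member change was -0.27 on the log2 scale, beside -0.03 for all genes, and 34 of the 46 fitted changes were below 0. At an unadjusted p under 0.05, 11 members were lower and 2 higher. DESeq2 called 5 lower, adding Lamc1 and Tnc, and 1 higher, Vtn. In no member did the 6 CCl4_PTH libraries lie apart from the 6 CCl4 libraries, while 1.87% of all genes tested were apart and lower and 2.2% apart and higher.

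Ccdc80 changed by -0.75 ± 0.18 (edgeR adjusted p = 0.0123). The groups met only at their edges, the highest CCl4_PTH library at 57.1 CPM and the lowest CCl4 library at 56.7. Nid1 changed by -0.84 ± 0.21 (edgeR adjusted p = 0.0161). Here 5 of the CCl4_PTH libraries were at 34.4 to 42.0 CPM, below every CCl4 library, and CCl4_PTH 1 was at 87.3, inside the CCl4 range. Tgfbi changed by -0.54 ± 0.14 (edgeR adjusted p = 0.0159), with CCl4_PTH libraries at 44.0 to 53.2 CPM, below or at the low end of a CCl4 range that began at 48.2. Among fits with no block on animal number, the Tgfbi call was lost without CCl4 7 (-0.42 on the log2 scale, edgeR adjusted p = 0.0527), with library sizes only (-0.67, adjusted p = 0.0549) and with only the 2 groups fitted (-0.50, adjusted p = 0.0525), while those of Ccdc80 and Nid1 passed in each. The change of each of the 3 kept its sign in every alternative tried.

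**Figure D3:**
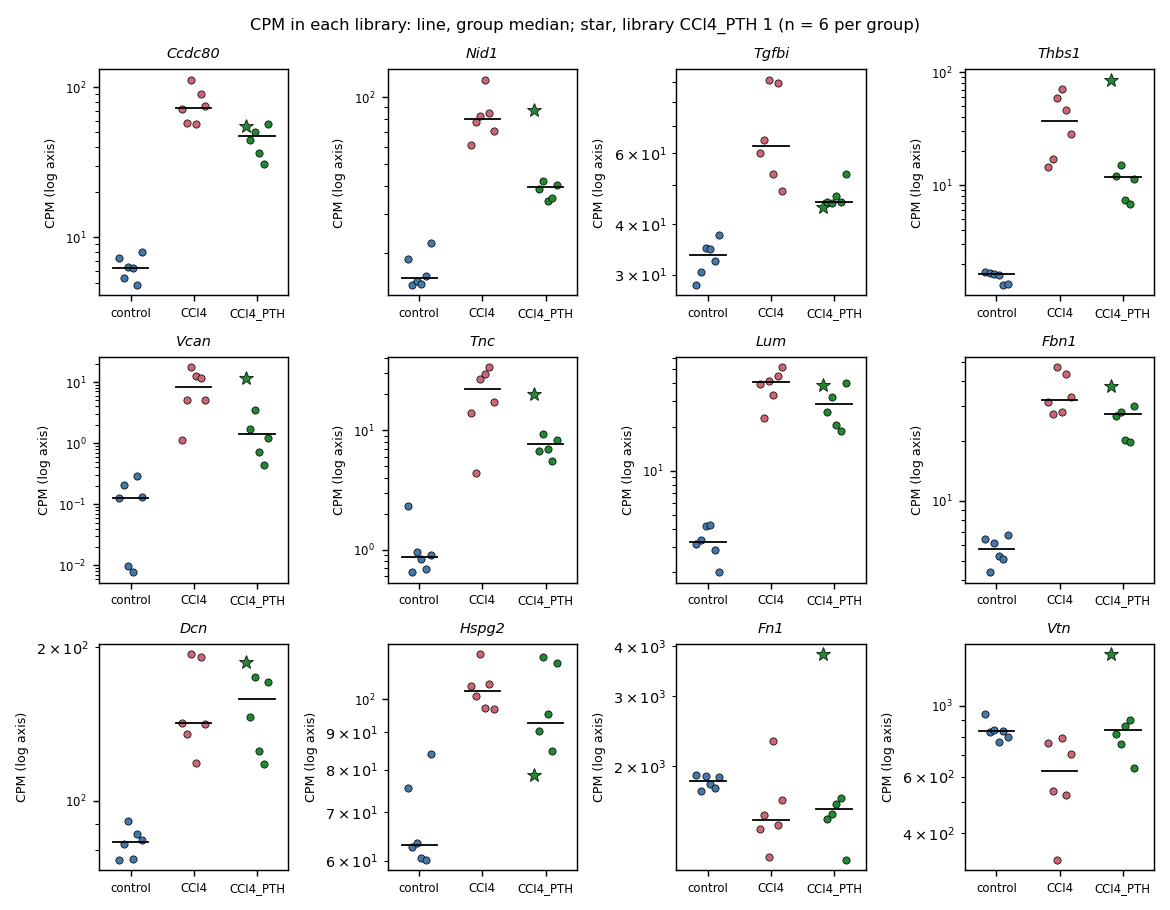
CPM (y axes, log scale) of 12 members in each library of the 3 groups (x axes), with lines at group medians, a star for CCl4_PTH 1 and libraries without a count drawn at 0.5 count. In Nid1, Thbs1, Vcan, Tnc and Fn1 the star lies above the other 5 CCl4_PTH libraries.

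Leaving out CCl4_PTH 1 changed the count of members called more than leaving out any other library. Without it 10 members fell and 1, Nid2, rose, beside 7.06% and 10.3% of the 22203 genes then tested. By role, 4 of the 10 were matricellular, 2 elastic fibre, 2 basement membrane, 1 a proteoglycan and 1 adhesive or other. Leaving out CCl4 2 gave 6 lower members, with Postn, Lamc1 and Tnc joining the 3.

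Thbs1 was one of the 10. It was at 85.8 CPM in CCl4_PTH 1, above every CCl4 library, and at 6.76 to 15.1 CPM in the other 5, and its change was -0.76 ± 0.57 (edgeR adjusted p = 0.424) with all libraries and -1.87 ± 0.36 (edgeR adjusted p = 0.00214) without it. Vcan was at 11.7 CPM in CCl4_PTH 1 and at 0.441 to 3.47 in the others, with a change of -1.47 ± 0.76 (edgeR adjusted p = 0.223) that became -2.54 ± 0.68 (edgeR adjusted p = 0.0173). Tnc was at 20.1 CPM there and at 5.53 to 9.25 elsewhere, and its change of -1.14 ± 0.42 (edgeR adjusted p = 0.0895) became -1.48 ± 0.41 (edgeR adjusted p = 0.0193).

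Sparcl1 was at 49.3 CPM in CCl4_PTH 1, beside 13.7 to 25.1. Its change was -0.36 with all libraries (edgeR adjusted p = 0.371), and it fell by 0.67 on the log2 scale without CCl4_PTH 1 (edgeR adjusted p = 0.0137). Nid1 became -1.09 ± 0.15 (edgeR adjusted p = 1.22e-04). The smaller falls without that library were -0.48 ± 0.15 (edgeR adjusted p = 0.0306) in Emilin1, -0.47 ± 0.16 (edgeR adjusted p = 0.0495) in Fbn1 and -0.34 ± 0.10 (edgeR adjusted p = 0.0243) in Lamc1, and Ccdc80 and Tgfbi stayed at -0.79 ± 0.19 (edgeR adjusted p = 0.00739) and -0.49 ± 0.14 (edgeR adjusted p = 0.0219). With all libraries Fbn1 was at -0.37 (edgeR adjusted p = 0.153) and Lamc1 at -0.30 (edgeR adjusted p = 0.0687). Nid2, the other nidogen, was at 7.84 CPM in CCl4_PTH 1 and 8.59 to 10.9 in the others, and rose by 0.42 ± 0.13 (edgeR adjusted p = 0.0375) without that library. With all libraries its change was 0.34 (edgeR adjusted p = 0.0978).

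Decorin, perlecan and the other members listed here, abundant or not, did not pass. The change of Dcn was 0.00 ± 0.14 (edgeR adjusted p = 0.997) and that of Hspg2 -0.11 ± 0.11 (edgeR adjusted p = 0.581). Lum changed by -0.42 ± 0.22 (edgeR adjusted p = 0.223), Bgn by -0.34 ± 0.15 (edgeR adjusted p = 0.156), Sparc by -0.24 ± 0.20 (edgeR adjusted p = 0.476) and Fbn2 by -0.63 ± 0.37 (edgeR adjusted p = 0.286). Emilin1 with all libraries was at -0.38 ± 0.16 (edgeR adjusted p = 0.124), Mfap4 at -0.36 ± 0.34 (edgeR adjusted p = 0.544), Efemp1 at -0.41 ± 0.23 (edgeR adjusted p = 0.274) and Lama2 at -0.14 ± 0.20 (edgeR adjusted p = 0.715). None of these passed with all libraries.

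Vitronectin had the largest positive change, 0.57 ± 0.21 (edgeR adjusted p = 0.0774), and Fn1 changed by 0.25 ± 0.24 (edgeR adjusted p = 0.555), which became -0.07 ± 0.16 (edgeR adjusted p = 0.829) without CCl4_PTH 1, where Fn1 stood at 3822 CPM beside 1164 to 1667 in the others. Vtn was also highest in CCl4_PTH 1, at 1446 CPM beside 638 to 899 in the others, and its change without that library is not given here. Vtn passed without CCl4 1 (0.65 on the log2 scale, edgeR adjusted p = 0.0452). Srpx was at 0.42 ± 0.55 (edgeR adjusted p = 0.677), Aspn at -0.11 ± 0.73 (edgeR adjusted p = 0.946), Ogn at 0.25 ± 0.37 (edgeR adjusted p = 0.724) and Tnxb at 0.03 ± 0.31 (edgeR adjusted p = 0.965), none past the threshold. Without CCl4_PTH 1 the change of Aspn was 0.10 (edgeR adjusted p = 0.95).

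Among the markers in CCl4_PTH against CCl4, 3 of 6 macrophage genes were lower (Cd68, Ccr2 and Trem2) and 1 higher (Clec4f), with sums of 157 to 261 CPM in CCl4 and 118 to 185 in CCl4_PTH. For comparison, 4.95% of all genes tested were lower and 7.1% higher. No lymphocyte marker passed, but all 5 changes were below 0 with a median of -1.04 on the log2 scale, 2 were at an unadjusted p under 0.05, and sums were 2.78 to 23.5 CPM in CCl4 and 1.64 to 8.29 in CCl4_PTH. All 6 hepatocyte changes were above 0 and 1 passed, with sums of 14535 to 41607 CPM in CCl4 and 29099.6 to 38340.5 in CCl4_PTH. Of 5 sinusoidal endothelium markers 1 was higher (145 to 183 CPM in CCl4 and 153 to 217 in CCl4_PTH). None of 8 stellate cell and fibroblast markers passed (378 to 665 CPM in CCl4 and 415 to 709 in CCl4_PTH), nor did any of 5 portal fibroblast markers (16.0 to 32.4 CPM in CCl4 and 9.97 to 29.9 in CCl4_PTH), 4 smooth muscle and myofibroblast markers (7.71 to 12.3 CPM in CCl4 and 6.34 to 22.4 in CCl4_PTH) or 5 mesothelium markers (7.31 to 16.7 CPM in CCl4 and 6.26 to 23.8 in CCl4_PTH). The same held for 5 vascular endothelium markers (84.1 to 126 CPM in CCl4 and 84.3 to 111 in CCl4_PTH), 5 cholangiocyte markers (90.8 to 173 CPM in CCl4 and 58.3 to 253 in CCl4_PTH) and 3 tested neutrophil markers (9.70 to 73.3 CPM in CCl4 and 10.6 to 129 in CCl4_PTH), and for Cfd and Cela1. The part of these markers in the falls of Ccdc80, Nid1 and Tgfbi was not tested.

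The third comparison set mice given both CCl4 and PTH against control, using the same control libraries as the first. Of 46 members 39 rose and none fell, by a median of 1.36 on the log2 scale beside 0.04 for all genes, and 17.4% of all genes tested rose and 10.3% fell. No member was lower at an unadjusted p under 0.05 or by DESeq2. In 32 members all CCl4_PTH libraries lay above all control libraries, where 9.79% of all genes tested did. Efemp1, at 0.55 ± 0.24 (edgeR adjusted p = 0.0891), and Agrn, at 0.10 ± 0.07 (edgeR adjusted p = 0.319), joined the 5 members that had not passed in CCl4. Efemp1 passed with only the 2 groups fitted (0.57 on the log2 scale, edgeR adjusted p = 0.0362). With library sizes only, where the median of all genes was 0.51, Efemp1 (1.02, adjusted p = 0.00948), Agrn (0.57, adjusted p = 0.00518), Vtn (0.58, adjusted p = 0.0217) and Aspn (2.1, adjusted p = 0.0377) passed. By role, 11 of 12 elastic fibre, 10 of 11 basement membrane, 6 of 8 proteoglycan, 8 of 9 matricellular and 4 of 6 adhesive and other members rose. Fbn2 was 7.62 ± 0.58 (edgeR adjusted p = 1.59e-07), Vcan 4.64 ± 0.97 (edgeR adjusted p = 0.00199), Thbs1 3.90 ± 0.65 (edgeR adjusted p = 3.54e-04), Lum 3.15 ± 0.24 (edgeR adjusted p = 1.09e-07) and Tnc 3.14 ± 0.47 (edgeR adjusted p = 1.41e-04). Ccdc80 remained 2.85 ± 0.19 (edgeR adjusted p = 3.28e-08), Nid1 1.46 ± 0.22 (edgeR adjusted p = 9.30e-05) and Tgfbi 0.50 ± 0.14 (edgeR adjusted p = 0.0104) above control, each without overlap. Without CCl4_PTH 1, 38 members rose and none fell, beside 15.9% and 10.2% of all genes tested, or 26% in either direction. Without that library Vcan was 3.53 ± 0.79 (edgeR adjusted p = 0.00397), Thbs1 2.76 ± 0.37 (edgeR adjusted p = 6.96e-05) and Tnc 2.76 ± 0.43 (edgeR adjusted p = 2.50e-04), while Fbn2 was 7.51 ± 0.58 (edgeR adjusted p = 2.63e-07) and Nid1 1.17 ± 0.15 (edgeR adjusted p = 2.21e-05). Matn2, at 0.88 ± 0.28 (edgeR adjusted p = 0.0235) with all libraries, no longer passed without it, at 0.68 ± 0.26 (edgeR adjusted p = 0.0675), nor without CCl4_PTH 3 or control 3 or 5 (adjusted p = 0.0545 to 0.0583). The calls of Fmod, lost without CCl4_PTH 3 or 8 or control 1, 3, 5 or 8, at 1.16 to 1.40 on the log2 scale and adjusted p-values of 0.0529 to 0.0823, and Srpx2, lost without CCl4_PTH 3 or 8 or control 2, 3, 4 or 5, at 0.49 to 0.64 on the log2 scale and adjusted p-values of 0.0543 to 0.104, also rested on single libraries. With only the 2 groups fitted Fmod was at 1.43 (adjusted p = 0.0559). Fmod (1.14, edgeR adjusted p = 0.125) and Srpx2 (0.70, edgeR adjusted p = 0.0509) also did not pass without control 1 and control 8 together.

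Relatives within a family did not always move together. Ratios of counts within a library, which need no scaling between libraries, were compared for 14 pairs of members in the 3 comparisons with a two-sided exact permutation test of 6 against 6 libraries, whose smallest possible p is 0.00216, adjusted over the 42 tests. In CCl4 against control 11 of the 14 ratios changed, in CCl4_PTH against CCl4 2 and in CCl4_PTH against control 9. Fibrillin 2 gained on fibrillin 1: the log2 ratio of Fbn2 to Fbn1 was -9.87, -9.11 and -5.35 in control, -1.77, -1.60 and -1.14 in CCl4 and -2.31, -1.74 and -1.54 in CCl4_PTH. The groups given CCl4 lay above control without overlap, and CCl4 differed from control by 6.69 (two-sided exact permutation p = 0.00216, Benjamini-Hochberg adjusted p = 0.00606). In the 4 control libraries with no Fbn2 count the ratio rests on the 0.5 count added.

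Lumican gained on its neighbour decorin. The log2 ratio of Lum to Dcn was -5.39, -4.61 and -4.19 in control, -2.54, -1.97 and -1.45 in CCl4 and -2.65, -2.48 and -2.1 in CCl4_PTH, an increase in CCl4 of 2.69 (two-sided exact permutation p = 0.00216, Benjamini-Hochberg adjusted p = 0.00606). Biglycan also gained on decorin in CCl4, and the gain was smaller under PTH. The log2 ratio of Bgn to Dcn was -1.01, -0.73 and -0.37 in control, -0.37, -0.20 and -0.12 in CCl4 and -0.68, -0.55 and -0.40 in CCl4_PTH. Every CCl4_PTH library lay below every CCl4 library, with a difference of -0.33 (two-sided exact permutation p = 0.00216, Benjamini-Hochberg adjusted p = 0.00606), although neither gene passed on its own, and the difference between CCl4_PTH and control was 0.16 (two-sided exact permutation p = 0.134, Benjamini-Hochberg adjusted p = 0.209). Without control 8 that last difference passed, at 0.23 (adjusted p = 0.0248).

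Nidogen 2 lost ground to nidogen 1 in CCl4. The log2 ratio of Nid2 to Nid1 was -1.88, -1.60 and -1.40 in control, -3.82, -3.48 and -2.98 in CCl4 and -3.48, -1.94 and -1.83 in CCl4_PTH. It fell in CCl4 by 1.80 on the log2 scale, without overlap (two-sided exact permutation p = 0.00216, adjusted p = 0.00606). Under PTH it was higher than in CCl4 by 1.23 (two-sided exact permutation p = 0.00866, Benjamini-Hochberg adjusted p = 0.0173), with 5 libraries above every CCl4 library and CCl4_PTH 1 at -3.48, among the CCl4 libraries. Without CCl4_PTH 1 the difference was 1.48 (adjusted p = 0.00649).

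Matricellular pairs shifted as well. The log2 ratio of Tnc to Tnxb was -5.82, -4.78 and -4.23 in control, -2.57, -0.92 and 0.25 in CCl4 and -2.93, -2.03 and 0.38 in CCl4_PTH, higher in CCl4 by 3.95 (two-sided exact permutation p = 0.00216, Benjamini-Hochberg adjusted p = 0.00606). For Thbs2 to Thbs1 it was 0.46, 0.87 and 1.30 in control, -2.57, -0.95 and 0.23 in CCl4 and -2.66, 0.26 and 0.56 in CCl4_PTH, a change in CCl4 of -1.81 (two-sided exact permutation p = 0.00216, Benjamini-Hochberg adjusted p = 0.00606). Sparcl1 gained on Sparc by 0.77 (two-sided exact permutation p = 0.00216, Benjamini-Hochberg adjusted p = 0.00606). Without CCl4_PTH 1, PTH against CCl4 also passed for Thbs2 to Thbs1 (1.27, adjusted p = 0.0303), Tnc to Tnxb (-1.39, adjusted p = 0.0436) and Lama4 to Lama5 (0.58, adjusted p = 0.0239), and that of Lum to Dcn passed without CCl4 2 (-0.54, adjusted p = 0.0207) or CCl4_PTH 8 (-0.50, adjusted p = 0.0435).

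Ratios of laminin alpha chains changed in CCl4. The log2 ratio of Lama4 to Lama5 changed in CCl4 by -1.01 (two-sided exact permutation p = 0.00216, Benjamini-Hochberg adjusted p = 0.00606) and that of Lama2 to Lama5 by 0.79 (two-sided exact permutation p = 0.0152, Benjamini-Hochberg adjusted p = 0.0289); the latter missed the threshold when any of CCl4 1, 4, 7 and 8 or control 2, 3, 4 and 5 was left out, with adjusted p-values of 0.0514 to 0.0672. Lamb1 to Lamb2 differed by 0.15 (two-sided exact permutation p = 0.348, Benjamini-Hochberg adjusted p = 0.403), Emilin2 to Emilin1 by -0.25 (two-sided exact permutation p = 0.264, Benjamini-Hochberg adjusted p = 0.326) and Fbln2 to Fbln1 by 0.54 (two-sided exact permutation p = 0.258, Benjamini-Hochberg adjusted p = 0.326), none past the threshold. Efemp2 gained on Efemp1 by 0.72 (two-sided exact permutation p = 0.00216, Benjamini-Hochberg adjusted p = 0.00606) and Srpx on Srpx2, the log2 ratio of Srpx2 to Srpx changing by -2.86 (two-sided exact permutation p = 0.00216, Benjamini-Hochberg adjusted p = 0.00606), the last with 2 control libraries that had no Srpx count. In CCl4_PTH against control, Nid2 to Nid1 missed the threshold without control 1, 2 or 3 and Thbs2 to Thbs1 without control 3 or 4, with adjusted p-values of 0.0514 to 0.0563.

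**Figure D4:**
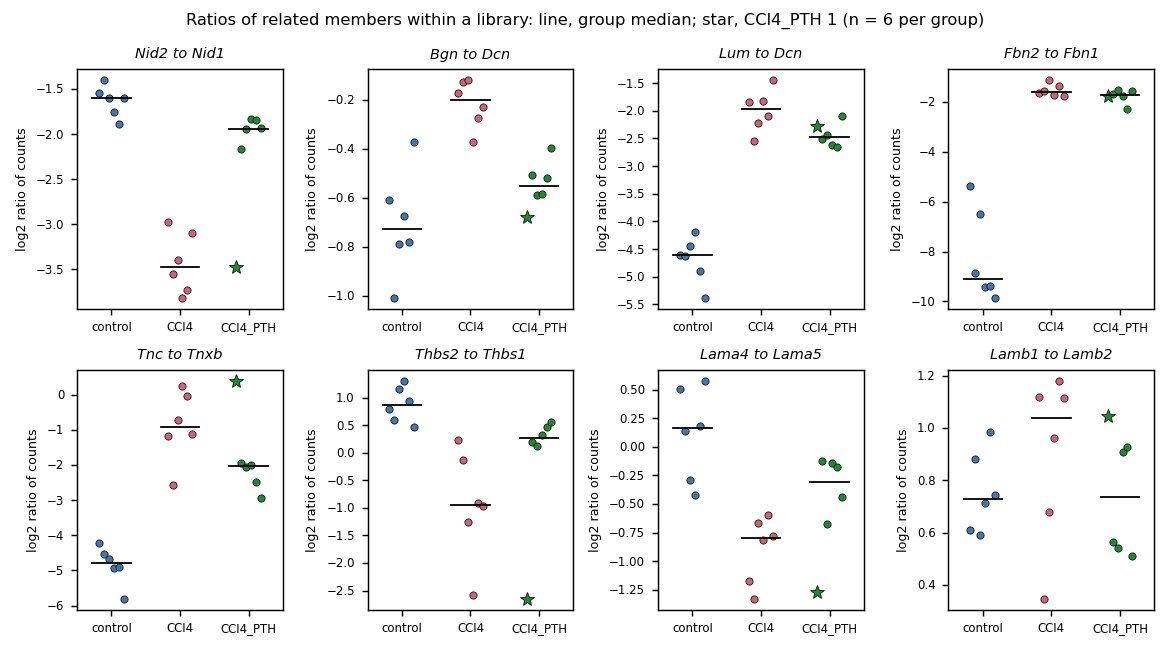
Log2 ratios of counts of related members (y axes, 0.5 count added to each) in each library of the 3 groups (x axes), with lines at group medians and a star for CCl4_PTH 1. Nid2 to Nid1 fell in CCl4 and 5 CCl4_PTH libraries lie above every CCl4 library, Bgn to Dcn is lower in all CCl4_PTH than in all CCl4 libraries, and Lamb1 to Lamb2 overlaps in all groups.

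Other genes of the pathway were taken from 5 lists. Of all genes tested, 26.3% rose and 21.2% fell in CCl4 against control, and 7.1% rose and 4.95% fell in CCl4_PTH against CCl4. Of 52 other matrix glycoproteins tested, 25 rose and 7 fell in CCl4 against control, with a median of 0.53 on the log2 scale, beside the 1.63 of the members and 0.05 of all genes. Ltbp2, a microfibril-bound relative of the TGF-beta binding proteins, was at 0.709, 1.0 and 1.76 CPM in control, 29.3, 32.2 and 68.6 CPM in CCl4 and 14.1, 22.8 and 45.2 CPM in CCl4_PTH and rose by 5.10 ± 0.36 (edgeR adjusted p = 2.17e-08). Mfge8, which helps phagocytes to clear dying cells, was at 4.78, 6.42 and 7.02 CPM in control, 24.6, 35.0 and 60.1 CPM in CCl4 and 11.1, 15.3 and 26.7 CPM in CCl4_PTH. It rose by 2.58 ± 0.22 (edgeR adjusted p = 8.35e-08) in CCl4, and its change under PTH was -1.14 ± 0.21 (edgeR adjusted p = 0.00281). In CCl4_PTH against CCl4, 3 of the 52 rose and 2 fell, shares close to those of all genes tested.

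Of 13 other secreted proteoglycans and link proteins, 6 rose and 1 fell in CCl4. Serglycin (Srgn), the proteoglycan of immune cell granules, rose by 2.35 ± 0.36 (edgeR adjusted p = 3.52e-05). Hapln1, which locks versican to hyaluronan, had 0 counts in all 6 control libraries, 0.191, 0.362 and 0.668 CPM in CCl4 and 0, 0.169 and 0.491 CPM in CCl4_PTH. Nyx, a small leucine-rich protein of the retina, was at 0, 0 and 0.117 CPM in control, 0.260, 0.378 and 0.813 CPM in CCl4 and 0, 0.0295 and 0.136 CPM in CCl4_PTH. It had 6 control counts, rose by 4.58 ± 1.03 (edgeR adjusted p = 0.00119) and changed under PTH, without overlap, by -3.04 ± 0.86 (edgeR adjusted p = 0.0272). Nyx passed the filter on low counts through its CCl4 libraries, the group where it was high. Its changes and lack of overlap are therefore only descriptions.

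Of 13 cell-surface proteoglycans and hyaluronan receptors, 5 rose and 4 fell in CCl4, beside 26.3% and 21.2% of all genes tested. Cd44, the hyaluronan receptor, rose by 2.76 ± 0.26 (edgeR adjusted p = 2.39e-07) and changed under PTH by -1.03 ± 0.24 (edgeR adjusted p = 0.0113), and the fetal liver glypican Gpc3 rose by 2.85 ± 0.42 (edgeR adjusted p = 2.64e-05). Dystroglycan (Dag1), a laminin receptor, was at 69.7, 74.8 and 82.3 CPM in control, 46.4, 52.0 and 62.6 CPM in CCl4 and 66.9, 72.1 and 84.1 CPM in CCl4_PTH. It fell in CCl4 by 0.49 on the log2 scale without overlap (edgeR adjusted p = 1.27e-04) and was higher under PTH without overlap, by 0.46 ± 0.09 (edgeR adjusted p = 0.00351).

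Of 38 enzymes of glycan chain synthesis and sulphation, 16 rose and 5 fell in CCl4. Xylt1, which starts the chains on their core proteins, rose by 3.49 ± 0.32 (edgeR adjusted p = 1.57e-07) and the sulfotransferase Chst15 by 0.83 ± 0.09 (edgeR adjusted p = 9.95e-07). Ndst1, which sulphates heparan chains, was at 147, 169 and 183 CPM in control, 86.5, 113 and 115 CPM in CCl4 and 123, 148 and 155 CPM in CCl4_PTH, -0.66 ± 0.10 (edgeR adjusted p = 2.38e-05) in CCl4 and 0.43 ± 0.10 (edgeR adjusted p = 0.00918) under PTH, both without overlap. Of 13 enzymes that break proteoglycans down, 10 rose and 2 fell. Adamts5, which cleaves versican and aggrecan, rose by 2.1 ± 0.25 (edgeR adjusted p = 2.63e-06), and heparanase (Hpse) rose by 1.73 ± 0.22 (edgeR adjusted p = 4.84e-06) and changed under PTH by -0.75 ± 0.21 (edgeR adjusted p = 0.0280). In CCl4_PTH against CCl4, of the last 4 lists, 1 secreted proteoglycan or link protein fell, 2 cell-surface genes rose and 1 fell, 1 enzyme of chain synthesis rose and 1 turnover enzyme fell. For comparison, 7.1% of all genes tested rose there and 4.95% fell.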

How the data were processed

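RNA of 18 livers, 6 per group, was depleted of ribosomal RNA and sequenced in paired reads, per the labels' protocols. The deposited values are estimated counts per gene, whole numbers as the authors deposited them. Among tools in the submitters' processing notes are the aligners HISAT2 2.2.1 and Bowtie2 2.5.1, the assembler StringTie 2.1.5 and, for reads, cutadapt 4.2 and FastQC 0.11.9; the build is GRCm38. The role of each tool is not recorded. The counting step and its strand setting are not given in the sources used here, and 17 of the 47 members have exons that another gene overlaps, 16 of them antisense.

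Genes with enough counts (edgeR filterByExpr, minimum count 10) were fitted in 1 model of the 3 groups with TMM scaling and edgeR's robust quasi-likelihood test (edgeR 4.0.16, limma 3.58.1, R 4.3.3), with Benjamini-Hochberg adjustment over all 21840 genes tested and a threshold of 0.05. Fold changes are on the log2 scale with standard errors. CPM were computed on TMM-scaled library sizes, and levels per kilobase used the union of GENCODE M21 exons. Ratios of 2 members had 0.5 count added to each and were tested by exact permutation (numpy 2.4.6), with Benjamini-Hochberg adjustment (statsmodels 0.14.6). The fit was also run on simulated data with the same spread in every gene and no outlying library. That run does not measure the error of the calls given here. Each library came from a separate mouse, per the labels' protocols, so p-values measure the spread between these mice.

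Members and gene lists were chosen with earlier results of these data known. Named with full values were, in each role, the 2 highest members per length and the 2 with the largest change in CCl4 against control, those called in CCl4_PTH against CCl4, and those that did not rise. Alternatives were DESeq2 1.42.0, its size factors in edgeR, library sizes only, ribosomal RNA loci left out, no filter, only the 2 groups compared, a replicate block, 5 counts added to ratios, control 1 and control 8 left out together, and each library left out.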

Additional observations from a re-analysis of the deposited data

Results flagged for a closer look

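In 5 of the 66 sets of 6 libraries examined, 1 library lay far from the other 5 for its spread (Dixon's test on log2 CPM), and chance alone flags about 1 set in 20. Nid1 was at 87.3 CPM in CCl4_PTH 1 and at 34.4 to 42.0 in the other 5 libraries of that group. Thbs1 was at 85.84 CPM in the same library and at 6.76 to 15.1 in the others, and Fn1 at 3822 CPM beside 1164 to 1667. Tgfbi was at 53.2 CPM in CCl4_PTH 8, beside 44.0 to 47.03. Tnc was at 2.317 CPM in control 1, beside 0.6475 to 0.957.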

How the results depend on the processing

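Over each library left out in turn, members called higher numbered 38 to 41 in CCl4 against control, 0 to 1 in CCl4_PTH against CCl4 and 36 to 39 in CCl4_PTH against control, and members called lower 0 to 1, 2 to 10 and 0 to 0. Over all genes, calls ranged from 5091 to 5762 higher and 4014 to 5189 lower, from 934 to 2286 and 575 to 1568, and from 3235 to 3928 and 1933 to 2586. Ratios past the threshold numbered 10 to 11, 2 to 5 and 7 to 11. In all 26 alternatives the call passed for 38 of the 41 members higher in CCl4 against control and 33 of the 39 in CCl4_PTH against control. The 10 lower members were found without CCl4_PTH 1. In CCl4 against control, leaving out 1 library at a time gave log2 differences of Ogn -0.18 to 0.21, Tnxb -0.048 to 0.31. In CCl4_PTH against CCl4, leaving out 1 library at a time gave log2 differences of Dcn -0.050 to 0.087, Fn1 -0.069 to 0.40, Aspn -0.38 to 0.15, Ogn -0.037 to 0.50, Tnxb -0.24 to 0.20, Fbln2 to Fbln1 -0.032 to 0.44, Efemp2 to Efemp1 -0.0058 to 0.24, Emilin2 to Emilin1 -0.053 to 0.16. In CCl4_PTH against control, leaving out 1 library at a time gave log2 differences of Vtn -0.080 to 0.17, Fn1 -0.31 to 0.11, Tnxb -0.15 to 0.36, Lamb1 to Lamb2 -0.063 to 0.045.

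With library sizes only, 11275 genes were higher and 1061 lower in CCl4 against control (91.4% of calls higher, beside 55.35% with TMM), 476 and 621 in CCl4_PTH against CCl4 (43.39% beside 58.93%) and 9559 and 353 in CCl4_PTH against control (96.44% beside 62.77%); the median of all genes moved to 0.63, -0.13 and 0.51. Vtn (0.073) and Fn1 (0.33) in CCl4 against control and Tnxb (-0.099) in CCl4_PTH against CCl4 changed sign. DESeq2 called 1 member higher and 5 lower in CCl4_PTH against CCl4, and 1766 genes lower; with only the 2 groups, 709 genes were lower. Without control replicates 1 and 8, 1 member was higher there. Dcn in CCl4_PTH against CCl4 was 0.014 with ribosomal RNA loci left out, 0.019 with no filter, 0.030 with only the 2 groups and 0.017 without control replicates 1 and 8, and Lamb1 to Lamb2 in CCl4_PTH against control was 0.0017 with 5 counts added. The cause of these shifts was not tested.

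Animal numbers are shared between groups, but nothing ties same-numbered mice: over 13 same-numbered pairs of libraries the correlation of deviations ran from -0.209 to 0.0833, with 0 over 0.1. With a replicate block, 0 members were lower in CCl4_PTH against CCl4, with 42 genes higher and 42 lower of all, and 2501 were higher and 842 lower in CCl4_PTH against control (Tgfbi, -0.49, Nid1, -0.75, and Ccdc80, -0.72, no longer passed in CCl4_PTH against CCl4, nor Agrn and Srpx2 in CCl4 against control, nor Tgfbi, 0.48, Fmod, Lama4, Matn2, Postn and Srpx2 in CCl4_PTH against control). In CCl4_PTH against CCl4, Dcn was 0.027, Srpx -0.20 and Tnxb -0.059. Depth limits Mfap5, which was not tested, and Aspn, Fbn2 and Vcan, whose control counts were few.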
